A study of Mus musculus with 8 samples.

Results

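Distal upstream probes of a mouse promoter array were examined for binding of Flag-tagged HoxB4. A distal probe was one whose nearest annotated start lay downstream of it, with the probe at -6000 to -2000 bp from that start, and which the array's annotation did not class as divergent promoter or downstream. This rule held for 119855 of 474380 probes other than controls (25.3%), 59673 on array 1 and 60182 on array 2. After removal of 15 probes with outlier marks, 119840 were used. Of these, 111443 (93.0%) could be given a gene, and they belonged to 11676 genes with a median of 9 distal probes each and at most 37. The array's annotation classed 113161 as promoter, 2982 as inside a gene and 3697 as unknown.

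The cells were blood progenitors made from the mouse embryonic stem (ES) cell line B6N-22UTR. Embryoid bodies, which are aggregates of differentiating ES cells, were grown for 6 days, and c-Kit+CD41+ precursors were sorted and placed on OP9, a bone marrow stromal line. The precursors received a retrovirus for HoxB4 with a 3xFlag tag, so HoxB4 was overexpressed and tagged, and per the series design c-Kit+ cells were collected at day 12 of the coculture. Chromatin was precipitated through Flag, both DNAs were amplified with T7 RNA polymerase, and Flag-IP DNA (Cy5) was hybridised with input DNA (Cy3). Array 1 carried chromosomes 1 to 8 and part of 9 and array 2 the other chromosomes, so every probe was measured once, and no difference below has a replicate check or a p-value. Precipitates from cells without the tag were not analysed here.

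HoxB4 is a homeodomain transcription factor that expands blood stem and progenitor cells in culture when overexpressed. Homeodomains recognise short AT-rich DNA words, and Hox proteins often bind together with the TALE cofactors Pbx and Meis. Sequence upstream of a gene's core promoter can hold enhancers, which factors bind at a distance from the start, and blood regulators such as Tal1, Lmo2 and Gata2 are known to be controlled by such elements.

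The array's coordinates belong to a build not given in the sources used here, and no sequence was read for its probes. A RefSeq promoter could be shown for 1 window because another gene's start lies inside the distal range there. Counted from the RefSeq start of Prkab1 (build GRCm38.p6), the strong distal window of that gene described below has its last probe 11 bp and its middle probe 115 bp from the start of Gm13842. The window is thus distal to Prkab1 but lies at the start of a neighbour. The 300 bases around that start, chr5:116029192-116029491 on the minus strand, are shown 5′ to 3′ with motif matches in capitals.
Gm13842: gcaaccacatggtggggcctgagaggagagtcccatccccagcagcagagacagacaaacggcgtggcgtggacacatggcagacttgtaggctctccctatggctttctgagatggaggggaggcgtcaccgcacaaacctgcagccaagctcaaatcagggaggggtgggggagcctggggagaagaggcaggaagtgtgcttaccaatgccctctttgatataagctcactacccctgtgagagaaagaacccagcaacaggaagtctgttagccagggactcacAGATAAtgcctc
Motifs of 5 kinds were searched on both strands, and the sequence held 1 match, to the GATA factor motif AGATAA, which was present in 11.2% of 32851 RefSeq promoters of this length. A second GATA motif, TGATAA, which overlaps the first in its last bases, was not found here and was present in 9.05% of promoters. The homeodomain core TAATTA was not found and was present in 5.29%. No match was found to the joint Hox and Pbx motif TGATTNAT, present in 3.22% of promoters. The Meis motif TGACAG, present in 19.2%, was not found either. The GC content was 56.7%, against a median of 52.7% over all promoters.

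The level at a probe was taken as the log2 ratio of Flag-IP over input signal, centred on the median of its array, so that 0 is the middle of all probes. Distal probes lay below it. Their mean was -0.33 ± 0.91 (SD over 59669 probes) on array 1 and -0.35 ± 0.89 (SD over 60171 probes) on array 2. Probes within 250 bp of a start had means of 0.35 ± 0.81 and 0.31 ± 0.78. The distributions overlapped widely, with percentiles 5 and 95 at -1.92 and 0.98 for distal probes and at -1.08 and 1.60 for gene start probes. In signal units, the medians of distal probes were 661 for input and 567 for Flag-IP, and those of gene start probes were 999.6 and 1523.

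Within the distal range the level was nearly flat. The mean was -0.31 from -2500 to -2000 bp, -0.35 from -4500 to -4000 bp and -0.37 from -5500 to -5000 bp. Just outside the rule, probes from -2000 to -1500 bp had a mean of -0.28, and the rise towards the start came almost wholly nearer than that, from -0.11 between -1000 and -500 bp to 0.36 in the first 500 bp downstream. At the far end, 649 probes from -6000 to -5500 bp had a mean of -0.39, and 517 probes beyond -6000 bp a mean of -0.15 ± 0.84 (SD). The 2 arrays traced the same course with different sets of chromosomes.

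**Figure D1:**
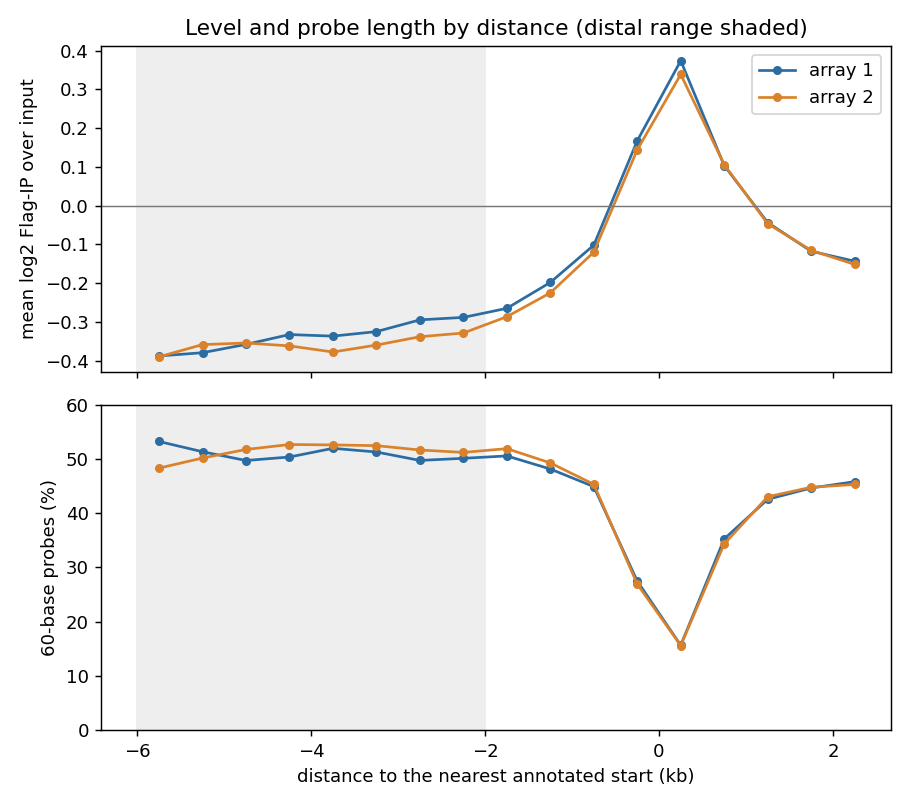
Mean log2 ratio of Flag-IP over input (top) and share of probes 60 bases long (bottom) in 500 bp bins of distance to the nearest annotated start, for array 1 and array 2, with the distal range shaded. Distal bins lie at -0.39 to -0.29 and the bin just downstream of the start at 0.37 and 0.34, where the share of 60-base probes is lowest.

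Probe length moved with the level and differed between the regions. Of distal probes 51.2% were 60 bases long, against 15.4% of gene start probes. At 60 bases the distal mean was -0.73 and the gene start mean -0.44, whereas at 44 to 45 bases they were 0.36 and 0.51. Distal probes were lower in all 5 length classes, by 0.15 to 0.34. Weighted over these classes, the difference was -0.28, against -0.67 without regard to length. Base composition was not analysed here, and its part in the distal level was not tested.

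**Figure D2:**
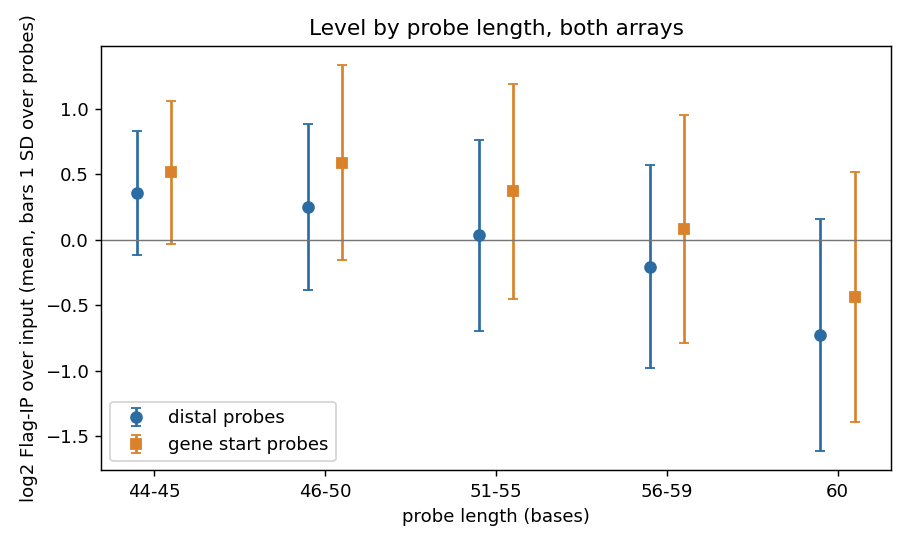
Mean log2 ratio of distal and gene start probes in 5 classes of probe length, both arrays together, with bars of 1 SD over probes. Distal means fall from 0.36 at 44 to 45 bases to -0.73 at 60 bases and lie below the gene start means in each class.

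Chromosomes differed more than arrays did. Among autosomes the distal mean was highest on chromosomes 15 and 11 (both -0.21) and lowest on chromosome 16 (-0.47). Over the 19 autosomes it fell with the share of 60-base probes (Pearson r = -0.94, a description over chromosomes of 2 arrays). Chromosome X was at -0.62 with 67.8% 60-base probes, and its input median was 353, against 626 for all distal probes of that array. For 60-base probes alone X was at -0.88 and chromosome 15 at -0.67, and for probes of 44 to 50 bases they were at 0.27 and 0.31. Chromosome Y had 77 distal probes with a mean of -0.88.

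Genes were then compared with themselves. In 9377 genes with at least 3 distal and 2 gene start probes, the median distal mean was -0.33 and the median gene start mean 0.31. The distal mean was the lower in 7583 genes (80.9%), with a median difference of -0.62 and percentiles 25 and 75 at -1.12 and -0.15. The arrays gave 80.5% and 81.3%. It was lower by 1 or more in 2870 genes and higher by 1 or more in 141. With the probe length effect removed, the share was 63.0% and the median difference -0.22, and with the brightness trend removed 68.2% and -0.28.

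**Figure D3:**
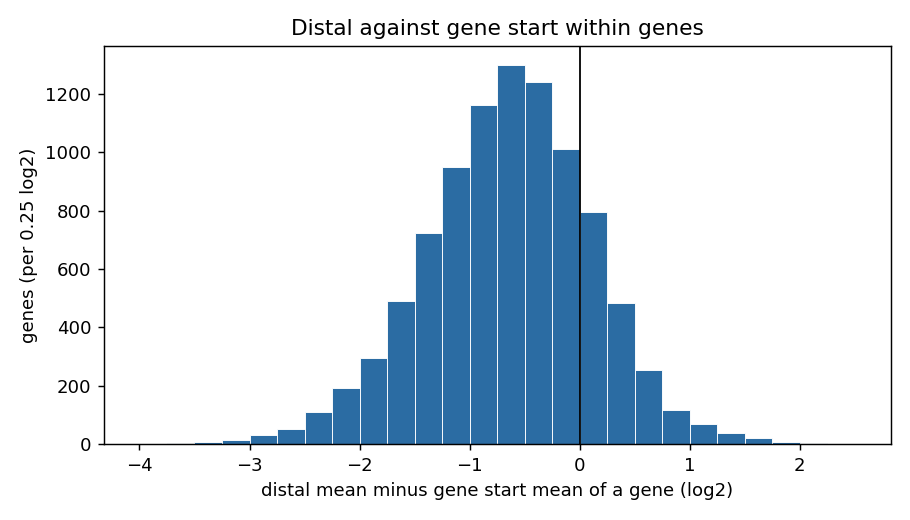
Number of genes by the difference between the mean log2 ratio of their distal probes and that of their gene start probes, for 9377 genes in steps of 0.25. The distribution centres on -0.62 and 80.9% of genes lie below 0.

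The level at a gene's start said little about its distal level. Across these genes the 2 means had a Pearson r of 0.24, a description across genes that share arrays and probe design. In the 2345 genes whose start mean was lowest (median -0.35), the distal median was -0.56 and a median of 62.5% of their distal probes were 60 bases long. In the other 3 groups of equal size, with start medians of 0.17, 0.46 and 0.96, the distal medians were -0.28, -0.23 and -0.26, with 50% of probes at that length. The distal level thus did not rise further between genes with intermediate and high starts. Genes chosen after their values were seen show large differences in each direction, though neither is the most extreme of all. Mad2l1, a spindle checkpoint gene, stood at 2.95 over 3 start probes and -0.72 over 13 distal probes. Sele, the gene of the endothelial adhesion molecule E-selectin, was at -1.63 over 3 start probes and 0.17 over 12 distal ones.

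A distal probe was read as high at a log2 ratio of 1 or more and as low at -1 or less. High were 5602 distal probes (4.67%), against 8.81% of all probes, and low were 26001 (21.7%), against 15.4% of all probes. The low side depended on how signal was computed. With signals corrected by normexp, 7442 distal probes were high and 3185 low. With the brightness trend removed the counts were 6891 and 10978, and with the length effect removed 7433 and 15536. Shares over all probes were not counted with these signals, so these counts cannot be set against all probes. Of the low distal probes 83.8% were 60 bases long, against 18.5% of the high ones. At 3 or more there were 7 distal probes, and at -3 or less 866, of which 6.70% were well above background in both channels.

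Neighbouring distal probes carried like values. Pairs 50 to 149 bp apart correlated at 0.64 over 33136 pairs and pairs 500 to 999 bp apart at 0.31 over 10209, close to 0.63 and 0.32 at gene starts. These are descriptions across sites, and neighbouring probes share an array. To use this, the median over 3 neighbouring probes was taken as a window, and 90275 windows were wholly distal.

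High windows were rare far upstream. A median of 2 or more was reached by 59 distal windows (0.0654%), against 0.247% of all 425939 windows, and they formed 31 separate regions. A median of -2 or less was reached by 1909 distal windows (2.11%), against 1.3% of all windows. Of the high ones 58 had all probes well above background in both channels, and of the low ones 308. With normexp signals 72 distal windows were high and 0 low, and with the brightness trend removed 28 and 75. Shares over all windows were not counted with these signals. The count of low windows thus moved far more with the signal used than that of high windows.

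With all probes above background, 27 of 10085 genes (0.268%) had a distal window of 2 or more, and 862 (8.55%) one of 1 or more. The highest was that of Pnpla1, the gene of a lipid enzyme of the skin barrier, on chr17:28583530-28584011, at -2443 to -2014 bp from its start. Its 3 probes measured 2.41, 2.90 and 2.88, with errors by Feature Extraction, the scanner software, of 0.31 to 0.34. Flag-IP signals were 4538, 6786 and 4244 over input signals of 815, 866 and 549. The gene start probes of Pnpla1 had a mean of 0.03 (6 probes), so the high signal lay at the distal site and not at the annotated start.

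Sesn2, a stress-induced inhibitor of mTORC1, had probes at 1.66, 2.60 and 2.82 on chr4:131785462-131786167, and a start mean of 1.64 (3 probes). A further 7 consecutive distal probes of Sesn2 from -5227 to -4122 bp were all above 1, with a mean of 1.71. Its upstream region was thus high over much of the measured range. Rhof, a small GTPase of filopodia, measured 1.86, 2.48 and 2.51 on chr5:123395984-123396413 and had the highest distal mean of the 12 genes with the strongest windows, 1.72 ± 0.60 (SD over 9 probes). Its start mean was 1.29 (4 probes).

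Calhm6, a calcium homeostasis modulator family gene, measured 2.66, 2.20 and 2.41 on chr10:33820699-33820996. It stood in a run of 10 consecutive distal probes above 1, from -4062 to -2676 bp, whereas its single start probe was at 0.31. Msx1, itself a homeobox gene, measured 0.66, 2.53 and 2.21 on chr5:38115145-38115542, and its 2 start probes had a mean of -0.04. In Msx1, as in Pnpla1, Calhm6 and Fcho2, a gene of clathrin-mediated endocytosis, the window stood at least 1.92 above the start mean. Fcho2 measured 0.71, 2.17 and 2.17 on chr13:99919443-99919919 with a start mean of 0.25 (4 probes).

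Other windows lay upstream of starts that were high as well. Prkab1, the beta 1 subunit of AMP-activated kinase, measured 1.49, 2.25 and 2.45 on chr5:116289944-116290276 in the array's coordinates, and its start mean was 1.53 (3 probes). This is the window that reaches the start of Gm13842. The sequence given above is that around the Gm13842 start and does not cover the whole window. Sde2, a gene of genome maintenance, measured 2.28, 1.95 and 2.20 on chr1:182685283-182685737 with a start mean of 1.68 (3 probes). In both, start and distal site were high together.

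The remaining 4 of the 12 had starts between 0.53 and 0.88. Olfm5, an olfactomedin gene, measured 1.05, 2.32 and 2.30 on chr7:104043158-104043639. Knop1, a nucleolar protein gene, measured 1.79, 2.29 and 2.52 on chr7:118649717-118650099. Pnrc2, which acts in mRNA decay, measured 2.31, 1.39 and 2.29 on chr4:135148475-135148762. Edem1, a gene of ER-associated degradation, measured 1.63, 2.81 and 2.27 on chr6:108790826-108791381. In 8 of the 12 windows, all but those of Pnpla1, Calhm6, Knop1 and Sde2, 1 probe lay below the median by more than the sum of their errors.

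The other 15 genes, named here after their values were seen, had windows of 2.00 to 2.16. Among them were Blnk, a B cell receptor adaptor (2.16), Hmox1, heme oxygenase (2.08), Per1, a circadian clock gene (2.08), and Grb2, a signalling adaptor (2.00). Of all 27 genes, 20 had a gene start mean below 1 and 4 at 0 or below. Their median start mean was 0.53, against 0.30 over all genes with a distal window. None had a distal mean below 0 (range 0.37 to 1.72), but this mean includes the probes of the window by which the genes were chosen. Runs of at least 5 consecutive distal probes at 1 or more numbered 49, and runs of at least 8 numbered 5, upstream of Calhm6, Klrg2, Atp2a1, Rhof and Zfp36, of which Klrg2, Atp2a1 and Zfp36 are named after their values were seen. The run at Klrg2, a lectin-like receptor gene, spanned 2988 bp with 10 probes of 1.00 to 2.13. No count of such runs over all probes is given here.

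Low windows were ranked by gene only where all 3 probes were well above background in both channels. Most low windows were left out by this, since 308 of the 1909 distal windows at -2 or less met it. Among the ranked windows the lowest was that of Scrg1. Scrg1, a gene linked to cartilage differentiation, measured -3.09, -3.04 and -1.07 on chr8:60343725-60344341, with input signals of 1253, 897 and 1067 and Flag-IP signals of 153, 114 and 531. Cldn8, a tight junction claudin, measured -2.66, -2.44 and -2.94 on chr16:88455815-88456177. Its gene start mean was -0.37 (3 probes), above all 3. Twist2, a mesenchymal transcription factor gene, measured -0.60, -2.62 and -2.86. Map3k9, a mixed lineage kinase gene, measured 0.55, -2.62 and -2.90, so its first probe went the other way.

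The other 4 of the 8 lowest belonged to receptor and hormone gene families of restricted expression. The odorant receptor genes Olfr934 and Olfr1124 had windows of -2.59 and -2.57, Prl8a9, a prolactin family gene, one of -2.57, and Vmn1r73, a vomeronasal receptor gene, one of -2.52. All 12 of their probes were 60 bases long. With normexp signals the 8 windows were at -1.35 to -0.87, and none reached -2. Runs of 8 or more consecutive distal probes at -1 or less numbered 116, against 5 on the high side. Single low distal probes were also more frequent than high ones, at 21.7% against 4.67%. No count of such runs over all probes is given here. Among the longest low runs, from 1 of 13 to 15 of 15 probes were well above background in both channels, and in the 5 high runs all were.

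**Figure D4:**
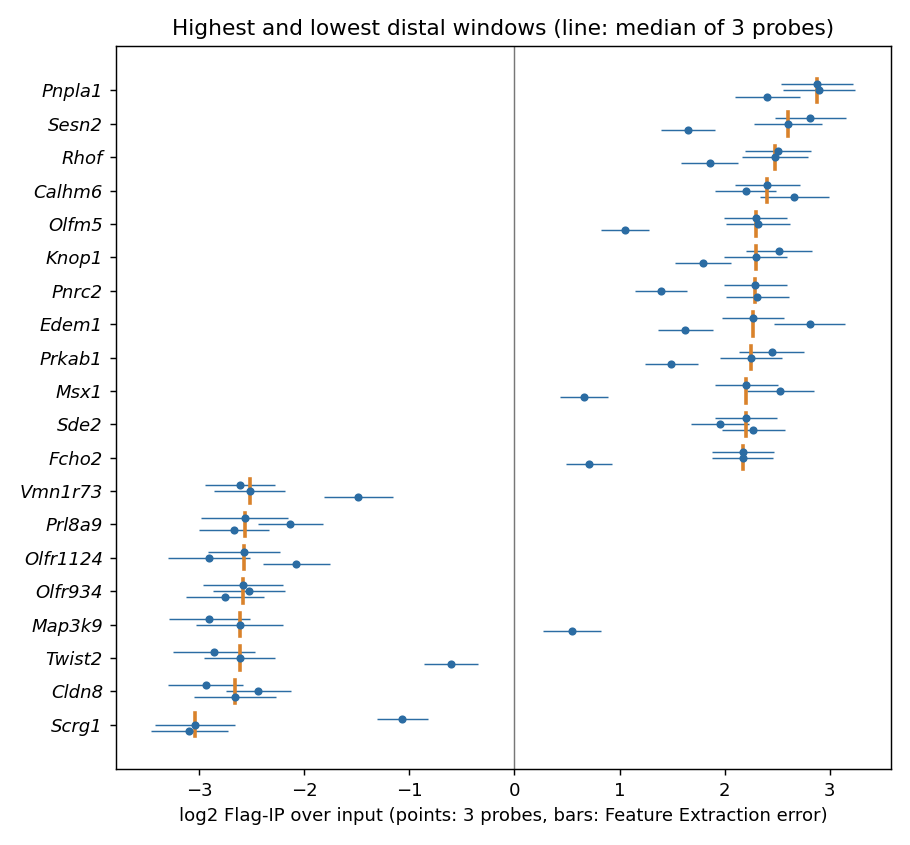
Log2 ratio of Flag-IP over input for the 3 probes (points, bars give the Feature Extraction error) of the highest distal window of 12 genes and the lowest of 8, with the median as an orange line. Only windows with all probes well above background in both channels were ranked. High windows lie at 2.17 to 2.88 and low windows at -3.04 to -2.52, and in Olfm5, Fcho2, Msx1, Scrg1, Twist2 and Map3k9, among others, 1 probe stands far from the other two.

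Few distal probes lay near the start of another gene. For 69750 distal probes whose gene has 1 start in the RefSeq table, the distance to other genes' starts was counted from it. The 619 probes within 500 bp of another start had a mean of 0.03, against -0.37 for 68070 probes more than 1500 bp from any. A level of 1 or more was reached by 10.7% and 4.43% of them. The share of 60-base probes differed too, at 32.8% and 52.9%, and among 60-base probes alone the means were -0.43 and -0.75. Of 40 windows at 2 or more with such a position, 38 were more than 1500 bp from any other start, and the 2 near one were those of Prkab1. Of windows at any level, 42478 were more than 1500 bp away, 695 at 501 to 1500 bp and 452 within 500 bp. Among the distal probes 97.6% lay more than 1500 bp away, so 38 of 40 is near that share. That most windows were far from other starts is fixed in part by the rule.

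Gene lists were read by each gene's highest distal window. Over all 10085 genes the median of this value was 0.20, with a median of 6 windows per gene. A gene with more windows has more chances of a high one, and list medians ran from 4 to 10.5 windows per gene. Hox genes and cofactors had a median of 0.71, and 7 of 24 (29.2%) reached 1, against 8.55% of all genes. They were Hoxc10 (1.64), Hoxb6 (1.56), Hoxd9 (1.51), Meis2 (1.31), Hoxa11 (1.25), Hoxd11 (1.14) and, below it, Hoxd3, of which the last 5 are named after their values were seen. The count was also 7 with normexp signals and with the brightness trend removed. The share of all genes was not counted with either of these signals. Hox genes lie in clusters, where neighbours are close, and the list had a median of 10.5 windows per gene, against 6 over all genes. The part of either in the count was not tested. The lowest was Hoxb1 at -0.02.

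Megakaryocyte and platelet genes had a median of 0.63 with 2 of 14 at 1 or more, F2rl2, a protease-activated receptor (1.12), and Nfe2, a platelet-forming transcription factor (1.05). With the brightness trend removed, 0 of the 14 genes reached 1, with normexp signals 1 did, and without centring or with the length effect removed 4 did. The share of all genes was not counted with these alternatives. The lowest was Gp1ba, a von Willebrand factor receptor subunit, at -1.61 with a start mean of 1.01. Of the stem cell regulators 2 of 20 reached 1, Lmo2, a bridging factor of the Tal1 complex (1.32), and Spi1, the gene of PU.1 (1.01), with Etv6 lowest at -0.99. The list median was 0.35. The share at 1 or more was 10% of the stem cell regulators and 14.3% of the megakaryocyte and platelet genes, against 8.55% of all genes. Each share rests on 2 genes.

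Neutrophil and monocyte genes had 2 of 12 at 1 or more, Ctsg, cathepsin G (1.59), and Cebpa, a myeloid transcription factor (1.30). Fcgr1, an Fc receptor, was lowest at -1.05. Lymphoid genes had 1 of 11, the recombinase gene Rag2 (1.11), with Cd79b at 0.98 and Lck at -0.80. Mast cell and basophil genes had 1 of 11, Srgn, serglycin (1.51), with Fcer1a at 0.78 and Ms4a2 at -0.39. Erythroid genes had 1 of 11, Car2, carbonic anhydrase (1.01), with Slc4a1 at 0.52 and Hba-a1 at -0.81. The medians of these lists were 0.29, 0.45, 0.25 and 0.04, around that of all genes. In the same order the shares at 1 or more were 16.7%, 9.09%, 9.09% and 9.09%, against 8.55% of all genes. Each share rests on 1 or 2 genes.

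OP9 stroma genes had 1 of 12 (8.33%) at 1 or more, Pdgfra, a median of 0.09, Kitl at 0.70 and Fn1 lowest at -0.65. Cell cycle genes had 3 of 16 (18.8%), against 8.55% of all genes, and a median of 0.23. Among them were Aurkb, a mitotic kinase (1.45), and Ccnd2, cyclin D2 (1.37), and Bub1b was lowest at -0.79. This list had a median of 7.5 windows per gene, against 6 over all genes. With normexp signals 5 of its genes reached 1, and with the brightness trend removed 2. Cytosolic ribosomal protein genes had none of 11 at 1 or more, against 8.55% of all genes. They are few and had a median of 4 windows per gene, against 6 over all genes. Their median was -0.14, from Rpl10a (0.52) and Rps14 (0.36) down to Rps3 (-1.24), and their median gene start mean was 0.92. Olfactory receptor genes had 6 of 569 (1.05%) and a median of -0.43, with Olfr1390 at 1.55, Olfr1389 at 1.35 and Olfr855 at -2.09. They had a median of 5 windows per gene. Of the distal probes of odorant receptor genes 80.9% were 60 bases long, and with the probe length effect removed 21 of the 569 genes reached 1. With normexp signals 10 did, and with windows of 5 probes 2. The share of all genes was not counted with the alternatives given here for cell cycle and odorant receptor genes. Probes of such a large family may bind DNA of several members, and the part of this in their level was not tested.

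**Figure D5:**
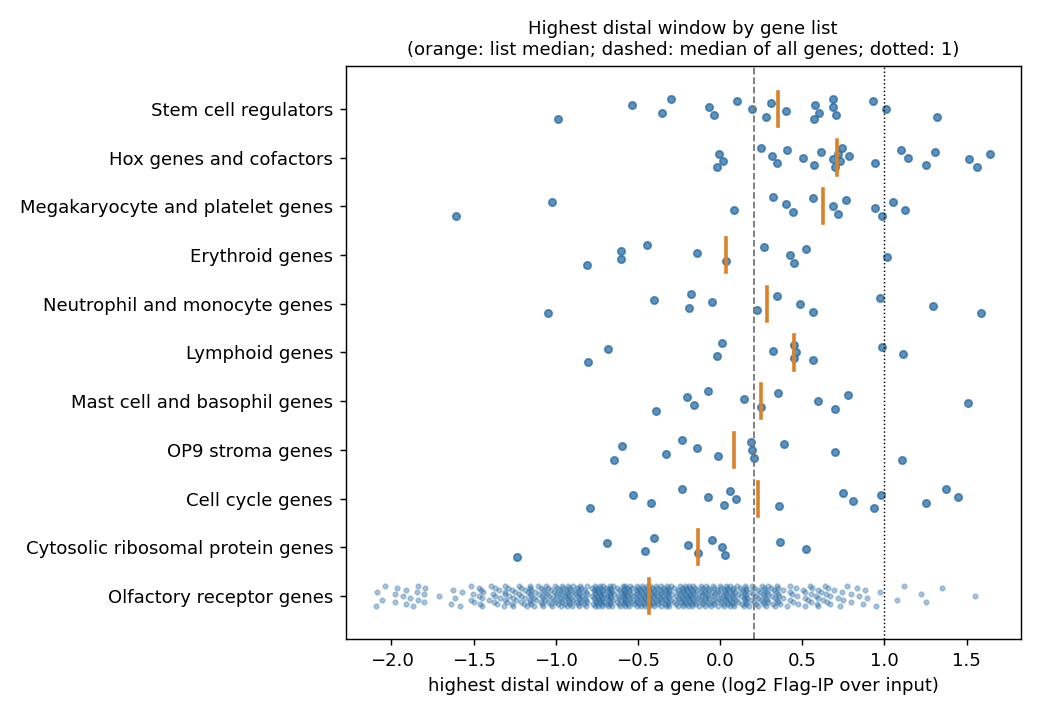
Highest distal window of each gene (points, log2 Flag-IP over input) in 11 gene lists, with the list median in orange, the median of all genes at 0.20 dashed and 1 dotted. Hox genes and cofactors have the highest list median at 0.71 and olfactory receptor genes the lowest at -0.43.

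Blood regulators chosen for their role had highest windows on both sides of the median of all genes. Over all genes, percentiles 25 and 75 of the highest window were -0.24 and 0.59. Gata1, Tal1, Runx1 and Meis1 lay above percentile 75, at 0.69 to 0.93, and Kit lay below percentile 25. Tal1 is not one of the genes behind these percentiles. In that order, Gata1 to Meis1 had 12, 12, 16 and 16 windows. The median was 6 over all genes, counting only windows with all probes well above background. More windows give more chances of a high one, and the part of this was not tested. Their distal means were -0.32, 0.37, -0.28 and 0.02, against a median of -0.35 over all genes. For the genes chosen by role, all distal probes that carry the gene's symbol were taken, even where another annotated transcript starts nearer. Tal1, a master regulator of blood formation, had the highest median of those with more than 2 probes. Its 14 probes on chr4:114549092-114552327 ran from -0.40 through a median of 0.25 to 1.59, with a highest window of 0.78 and a start mean of 1.26. They lay at -5236 to -2060 bp from the cDNA BC063060, the nearest entry, but at -8337 to -5161 bp from the Tal1 entry. Gata2, a stem cell GATA factor, had 2 distal probes, at 0.85 and 1.39, the second not well above background in both channels.

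Meis1, the Hox cofactor, had 18 probes with a lowest value of -1.79, a median of 0.16 and 1 probe at 1 or more, and its highest window was 0.69. Runx1, needed for the first blood stem cells, had 18 from -2.49 through -0.19 to 0.84 and a highest window of 0.70. Gata1, the erythroid and megakaryocytic GATA factor, had 14 from -1.57 through -0.29 to 1.00. The 3 probes of its highest window, 0.93, lay between -3466 and -3064 bp, and 4 others were at -1 or below. Kit, the stem cell factor receptor by which the cells were sorted, had 12 from -1.93 through -0.41 to 0.36, and no window above -0.35.

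Hoxb4, the endogenous gene of the overexpressed factor, had 18 distal probes on chr11:96127952-96131138, from -1.26 through -0.18 to 0.49. None reached 1, and its highest window was 0.46. These probes lay at -5280 to -2141 bp from the nearest entry and at -6854 to -3715 bp from the Hoxb4 entry. Arid1a, a subunit of the SWI/SNF remodelling complex, had 11 distal probes from -1.65 through -0.45 to 0.08. They were distal to the cDNA BC082554 (-5465 to -2501 bp) and lay at -8623 to -5659 bp from the Arid1a entry. The 6 Arid1a probes of 2.12 to 3.88 were not distal by the rule: they lay at -4155 to -3185 bp from the Arid1a entry but at -997 to -27 bp from BC082554, whose start is nearer. Which start a probe is measured from thus decided whether the highest signal near Arid1a counted as distal.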

How the data were processed

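Both promoter arrays were scanner output of Agilent Feature Extraction 10.1.1.1 (version per the file headers). The deposited intensities are processed signals, scaled by 1 linear factor per dye. Spatial and multiplicative detrending and the use of surrogate values were also switched on in Feature Extraction. The deposited log10 ratio column lay within 0.001 of log10 of the processed ratio for 99.98% of probes and the deposited value table for 100% of them, and both served as alternatives. From the intensities, log2 of Cy5 (Flag-IP) over Cy3 (input) was computed and centred on each array's median (0.06 and 0.07 before centring) in Python 3.11.15 with pandas 2.3.3. A window is the median of 3 neighbouring probes with starts at most 1000 bp apart. A probe took the symbol's gene if that entry lay within 1000 bp of the nearest. Names were updated through RefSeq (GRCm38.p6), 11406 symbols by accession and 81 kept. Of distal probes, 93.5% were marked well above background in Cy3 and Cy5. Alternatives used limma 3.58.1 (normexp, offset 50) in R 4.3.3. Window and gene functions were tested on simulated data. The number of arrays limits the precision. The expression arrays were not used, since no given table pairs their probe sets with genes. Named genes are the 12 highest and 8 lowest windows, 2 highest and 1 lowest per list, and 8 chosen by role. Except for those chosen by role, windows were ranked only where all probes were well above background in both channels. The members and lists were chosen with earlier results of these data known.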

Additional observations from a re-analysis of the deposited data

How the results depend on the processing

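No paired analysis was possible because each probe was measured on 1 array. Alternatives on base composition, sequence features of distal probes and expression of the genes (replicate block, scale, filter and arrays left out) were not run, since probe sequences and a table of probe sets were not used here. The mean distal level of -0.34 kept its sign under all alternatives run. It was -0.12 with normexp, -0.094 with the brightness trend removed, -0.28 without centring, -0.26 over probes well above background, -0.37 over probes with 1 entry and -0.15 with the median of each probe length removed, a setting chosen after seeing the data, as was the distance to the symbol's own entry, which moved no main count or level beyond its limit. The median difference within genes of -0.62 was -0.59 with normexp, -0.28 without the brightness trend, -0.58 over probes well above background, -0.61 from -6000 to -4000 bp, -0.59 from -4000 to -2000 bp, -0.54 with 1 entry, -0.22 without the length effect and -0.56 with starts up to 500 bp. Values of mean level and difference count as moved beyond the SD between the 2 arrays (0.018 and 0.010). The arrays carry different probes, so this limit is a convention and not a spread of replicates.

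Distal probes at 1 or more (5602) numbered 3125 on array 1, 2477 on array 2, 1972 from -6000 to -4000 bp, 3632 from -4000 to -2000 bp, 134 with 1 entry and 250 at 2 or more. Those at -1 or less (26001) numbered 12861, 13140, 10164, 15841 and 794 in the same order and 5213 at -2 or less, 3185 with normexp, 10978 without the brightness trend and 15536 without the length effect. Windows at 2 or more (59) numbered 38 on array 1, 21 on array 2, 13 from -6000 to -4000 bp, 3 with 1 entry, 28 without the brightness trend, 19 over 5 probes, 2602 at 1 and 397 at 1.5. Windows at -2 or less (1909) numbered 893, 1016, 593 and 50 in the same order, 75 without the brightness trend, 853 over 5 probes, 15738 at -1 and 5914 at -1.5, then 0 with normexp, 414 over probes well above background, 1017 from -4000 to -2000 bp and 576 without the length effect. Counts over fewer probes fall by construction, and the cause of the other changes was not tested. The alternatives were counted for distal probes and windows only, without the share over all probes or windows.

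Of the 12 highest genes, 3 stayed at 2 or more without the brightness trend, 3 on array 2, 3 from -6000 to -4000 bp, 1 with 1 entry and 5 over windows of 5 probes. Of the 8 lowest, 0 stayed at -2 or less with normexp, 3 without the brightness trend, 4 on array 1, 4 on array 2, 3 in each distance range, 0 with 1 entry and 3 over 5 probes. Over 60 named windows and 987 alternative values, 808 moved by less than the error of the probes, 176 by more and 3 turned sign: Knop1 (-0.46) and Edem1 (-0.065) from -6000 to -4000 bp and Spi1 (-0.12) from -4000 to -2000 bp, ranges that do not hold their windows.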
